A study of Arabidopsis thaliana with 51 samples.

Results

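A set of 421 probes was followed whose level stepped down along a series of 4 pistil and silique groups of Arabidopsis thaliana. The set was taken from 27600 probes of a two-colour array survey of plant organs. Each array was centred on its median, and a probe was kept if it had at least 2 values in each of 4 organ groups, if its group mean did not rise at any of the 3 steps from Pistil 1DBP through Pistil 1DPP and Silique 3DPP to Silique 8DPP, and if its mean was at least 2 log2 units lower at 8DPP than at 1DBP. INO, TOPII and PRL were left out by name, and none of them had the values the rule asks for at 8DPP. Of the 20292 probes with the required values, 1966 had a mean that did not rise at any step, 421 of these met the 2 log2 limit, and 503 probes met the same rule turned the other way. The members were thus selected on the group means of these 12 arrays, and those values are given as a description without a test.

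The survey comprised 51 arrays in 20 groups, and each deposited value is the log2 ratio of the RNAs on an array. On 45 arrays total RNA of an organ was set against total RNA of cultured cells, in 17 groups, and on 6 arrays an organ in light was set against the same organ in the dark. The stages were Pistil 1DBP with 2 arrays, Pistil 1DPP with 4, Silique 3DPP with 3 and Silique 8DPP with 3. The sources used here do not spell out these codes. The other groups were sepal, light cotyledon, light and dark hypocotyl and light and dark root with 2 arrays each, and petal, stamen, rosette leaf, cauline leaf, stem, germinating seed and dark cotyledon with 3 each. Light against dark was measured directly in cotyledon, root and hypocotyl with 2 arrays each, and the hypocotyl pair is not used here because its direction is not settled. The accession, age, growth conditions and cultured cell line are not given in the sources used here, nor is it stated that arrays of a group came from separate plants, so p-values measure the spread between arrays. That a ratio runs organ over cultured cells and light over dark is likely rather than stated.

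The pistil is the female organ of the flower, and after pollination and fertilisation it grows into the silique, the fruit that encloses the seeds. Its ovules are fertilised by pollen tubes that pass through stigma, style and transmitting tract, tissues rich in secreted proteins, wall proteins and lipids. During fruit growth the carpel walls become the valves, the stigmatic tissue withers and the ovules become seeds. In whole-organ RNA, fewer cells of a type and less RNA per cell cannot be told apart.

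The members stood at a median centred log2 ratio to cultured cells of 2.94 at 1DBP, 2.06 at 1DPP, 1.36 at 3DPP and 0.04 at 8DPP. Over all 20292 probes with the values the medians were -0.08, -0.07, -0.09 and 0.02 in the same order. The members were thus above the array median in the pistil and level with it in the last silique. Of the 421, 401 had a mean above 0 at 1DBP and 216 at 8DPP. The difference, 8DPP minus 1DBP, had a median of -2.73 and ran from -8.66 to -2.0, with 164 members at or beyond 3 log2 units, 63 at or beyond 4 and 32 at or beyond 5. The 3 members nearest the limit had differences of -2.0003, -2.0005 and -2.0011, and the 3 nearest probes outside it had -1.9996, -1.9982 and -1.9971.

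After centring, the 3DPP to 8DPP step was the steepest for 259 members. It was the 1DBP to 1DPP step for 96 and the 1DPP to 3DPP step for 66. The median steps were -0.71 from 1DBP to 1DPP, -0.58 from 1DPP to 3DPP and -1.38 from 3DPP to 8DPP. Over all probes with the values they were -0.14, 0.09 and -0.05. Centring enters these sizes, as the deposited array medians were 0.19 to 0.74 at 1DPP, 0.0 to 0.37 at 3DPP and 0.76 to 0.91 at 8DPP. Steps without centring were not computed, nor was the steepest step over all probes. The rule favours a low 8DPP level, so nothing is read from the order of the steps. In 410 of the 421 members both 1DBP arrays lay above every 8DPP array, a separation that 29.4% of all probes with the values also had, and the remaining 11 members overlapped. The rule used this contrast, so nothing is read from the count.

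The arrays differed in how far they carried the pattern. The organ was in channel 2 on all 12 pistil and silique arrays, so the dye did not differ between the stages. It was in channel 1 in rosette leaf, cauline leaf, stem and 1 light root array, and in channel 2 on the other arrays against cultured cells. The part of the dye in differences between those channel 1 arrays and the pistil arrays was not tested. Array 3 of the 8DPP siliques held 7399 values, against 23208 and 23335 on arrays 1 and 2 of that group, so the 8DPP mean of 329 members rested on 2 arrays and that of 92 members on 3. Replicate 3 held values for 123 of the members. By array, the members' medians lay between -0.07 and -0.01 at 8DPP, against 3.24 on replicate 2 and 2.57 on replicate 3 at 1DBP. The deposited array medians were between 0.76 and 0.91 at 8DPP and between 0.19 and 0.23 at 1DBP. Without centring, the median difference of all probes between 8DPP and 1DBP was 0.59 and the rule kept 237 probes, of which 167 were among the 421, while 773 met the rising rule. The values below are relative to the array median.

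Membership was also rebuilt leaving out one array at a time and read on the array that had taken no part. Chosen without 1DBP replicate 3, 593 probes qualified, and the 583 of them with a value on that array had a median of 1.87 there, against 2.90 on the array that chose them. Chosen without 1DBP replicate 2, 386 probes qualified, with a median of 2.47 on the omitted array over 362 probes and 2.89 on the other. Without 8DPP replicate 3, 419 probes qualified, and 121 of them with a value on it had a median of 0.48 there, against -0.26 on the arrays used. Omitting 8DPP replicate 1 or 2 left 126 or 122 members, because only 6259 or 6247 probes then had the values. On each omitted array of the first and last stage the level lay nearer the middle than on the arrays that had chosen the probes.

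Gene names were available for few probes. Of the 421 members 35 carried 1 gene in the annotation table, and 3 of these sat on genomic clone accessions and were left unnamed, leaving 32 named genes with 1 member probe each, out of 1524 named probes with the required values. The share of named probes that were members was 2.1%, and that of all probes was 2.07%. The named genes are taken here by the known role of their products, an ordering made after their values had been seen. For each, values are log2 ratios to cultured cells on the 2, 4, 3 and 3 arrays of the stages, in replicate order, with missing values left out.

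Genes for lipid-binding and lipid-modifying proteins included the steepest named member. AT1G62500, which encodes a protein of the lipid-transfer and seed-albumin superfamily, read 10.11 and 4.85 at 1DBP, 3.23, 2.49, 3.42 and 2.29 at 1DPP, 0.37, 0.73 and 0.75 at 3DPP, and 2.08, -4.54 and 3.67 at 8DPP. The 1DBP arrays were both above all others, but the 8DPP arrays spread over more than 8 log2 units and lay on both sides of the 3DPP values, so its place among the members rests on 8DPP replicate 2 and its difference of -7.08 is loosely fixed. AT1G48750, of the same superfamily, read 6.07 and 5.60 at 1DBP, 3.88, 4.33, 4.67 and 5.32 at 1DPP, 4.46, 4.75 and 3.96 at 3DPP, and 2.57 and 3.14 at 8DPP, with an 8DPP minus 1DBP difference of -2.98. Its 1DBP and 8DPP arrays did not overlap and its level stayed above that of cultured cells at every stage. AT1G02190, a homologue of the wax-synthesis protein CER1, read 3.18 and 3.79 at 1DBP, 2.22, 3.05, 2.01 and 2.23 at 1DPP, 2.06, 1.00 and 2.36 at 3DPP, and 1.51, -0.06 and -0.35 at 8DPP. The 1DBP arrays were above all others, with 1DPP replicate 2 just below them, and 8DPP replicate 1 lay within the range of the 3DPP arrays. AT5G03610, a GDSL-type lipase, read 2.17 and 1.60 at 1DBP, 0.79, 0.80, 0.93 and 1.41 at 1DPP, 0.87, 0.55 and 0.59 at 3DPP, and -1.54 and -1.10 at 8DPP. It was close to flat between 1DPP and 3DPP and below cultured cells on both 8DPP arrays. AT4G23670, a major latex protein-like member of the Bet v 1 superfamily, read 6.41 and 4.70 at 1DBP, 5.86, 5.05, 4.99 and 5.25 at 1DPP, 4.30, 3.64 and 4.23 at 3DPP, and 2.1, 1.98 and 2.84 at 8DPP. All 3 of its 8DPP arrays were below every earlier array.

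Secreted and cell wall proteins formed a second group. ATLP-1, a thaumatin-like protein, read 8.97 and 5.34 at 1DBP, 4.72, 4.09, 4.39 and 5.91 at 1DPP, 4.27, 5.29 and 3.41 at 3DPP, and -1.02 and 2.08 at 8DPP. The 1DPP and 3DPP arrays overlapped, 1 of the 1DPP arrays was above the lower 1DBP array, and both 8DPP arrays were below all the rest, so that its difference was -6.62. AT1G71695, a class III peroxidase, which is a secreted enzyme that acts on phenolic compounds in the wall, read 2.56 and 1.96 at 1DBP, 0.25, 0.18, 1.08 and 0.65 at 1DPP, 0.63, 0.46 and 0.43 at 3DPP, and -1.37, -1.20 and -1.05 at 8DPP. Its steps lay between 1DBP and 1DPP and between 3DPP and 8DPP, with no overlap at either, and its 3 8DPP arrays were alike. HRGP1, a hydroxyproline-rich structural wall glycoprotein, read 0.13 and 1.46 at 1DBP, 0.62, 0.99, -0.05 and -1.16 at 1DPP, -1.15, 0.94 and -1.05 at 3DPP, and -1.18, -1.34 and -1.68 at 8DPP. Its intermediate arrays were scattered: 1 of the 3DPP arrays lay within the 1DBP range and the other two just above the 8DPP arrays. AT3G62110, a polygalacturonase-like pectin lyase-fold protein, read 3.11 and 1.45 at 1DBP, -0.16, 0.83 and 2.38 at 1DPP, 0.54, 0.32 and -0.04 at 3DPP, and 1.08 and -0.80 at 8DPP. The 1DPP arrays of this gene spanned more than 2 log2 units, and its 8DPP arrays overlapped the 1DPP and 3DPP arrays.

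Peptidases and an amidase followed. The scpl35 gene encodes a serine carboxypeptidase-like protein and read 5.34 and 5.04 at 1DBP, 5.13, 4.87, 4.74 and 5.68 at 1DPP, 4.80, 4.22 and 4.02 at 3DPP, and 1.80 and 1.32 at 8DPP. It was level from 1DBP to 1DPP and all of its early arrays stood above both 8DPP arrays by more than 2 log2 units. AT3G20015, an aspartyl protease, read 4.80 and 4.32 at 1DBP, 3.05, 4.43, 3.0 and 7.13 at 1DPP, 4.43, 2.82 and 4.38 at 3DPP, and 1.76, 0.68 and 0.34 at 8DPP. One 1DPP array was far above the others, and the step that separated all arrays was the last one. AT2G41760, the N-terminal glutamine amidase that feeds proteins into the N-degron pathway, read 3.23 and 2.05 at 1DBP, 2.16, 2.41, 1.95 and 2.68 at 1DPP, 1.43, 2.32 and 1.32 at 3DPP, and 0.19 and 0.76 at 8DPP. Both 8DPP arrays lay below every earlier one.

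The spread among 8DPP arrays differed widely between genes, from -4.54 to 3.67 for AT1G62500 against -1.37 to -1.05 for AT1G71695.

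Transcription factors and other DNA-binding proteins made up the next group. SPT (SPATULA), a bHLH factor needed for the carpel margin, style and transmitting tract, read 2.41 and 2.11 at 1DBP, 1.53, 1.37, 1.72 and 1.17 at 1DPP, 0.96, 1.37 and 0.21 at 3DPP, and 0.57 and -0.59 at 8DPP. The stages stepped down in order, with an overlap between 1DPP and 3DPP and between 3DPP and 8DPP, and its difference was -2.27. AT1G59640, the bHLH gene BIGPETAL, which limits petal cell size and whose transcript forms the probe is not shown to separate, read 3.14 and 3.12 at 1DBP, 2.0, 2.98, 1.13 and 1.97 at 1DPP, 2.15, 2.31 and 1.26 at 3DPP, and 1.21 and 0.33 at 8DPP. Its 1DBP arrays were alike and above all the others. LHW, a bHLH factor of vascular cell divisions, read 2.58 and 1.98 at 1DBP, 1.69, 1.85, 2.41 and 1.42 at 1DPP, 1.16, 1.30 and 1.37 at 3DPP, and 0.12 and -0.38 at 8DPP. The 3DPP arrays were below every 1DPP array and the 8DPP arrays below every 3DPP array. SHI, a zinc finger protein whose family acts in style and stigma development, read 1.61 and 0.60 at 1DBP, 0.46, 0.91, 0.71 and 0.82 at 1DPP, 0.44, -0.12 and 0.45 at 3DPP, and 1.10 and -4.66 at 8DPP. This is the 1 named member whose 1DBP and 8DPP arrays overlapped: its 8DPP mean comes from 1 array near the pistil level and 1 far below, so its place among the members depends on 8DPP replicate 2. AT3G13040, a MYB-like protein, read 1.61 and 2.21 at 1DBP, 1.08, 1.86, -0.81 and 0.69 at 1DPP, -0.84 and 1.44 at 3DPP, and -0.25, -1.42 and -1.08 at 8DPP. Its intermediate arrays were widely scattered. AT1G48610, a protein with AT-hook motifs that bind DNA, read 3.11 and 2.27 at 1DBP, 3.14, 1.75, 2.17 and 1.92 at 1DPP, 2.03, 1.18 and 2.18 at 3DPP, and -3.81 and -0.96 at 8DPP. It differed little up to 3DPP and dropped to below cultured cells at 8DPP, where the 2 arrays lay almost 3 log2 units apart.

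Further members have roles in signalling and RNA. AT5G63410, a leucine-rich repeat receptor-like kinase, read 5.59 and 4.64 at 1DBP, 7.63, 4.30, 4.94 and 3.30 at 1DPP, 3.76 and 3.35 at 3DPP, and 0.73 and 0.30 at 8DPP. AT4G36970, a remorin, a plant-specific membrane-associated protein, read 3.07 and 2.17 at 1DBP, 1.91, 2.05, 2.13 and 1.55 at 1DPP, 1.74, 0.21 and 2.25 at 3DPP, and 0.09, -0.60 and 0.02 at 8DPP. In the kinase the last step was the steep one, while the remorin had 1 low array among its 3DPP values. AT3G51950, a protein with a CCCH zinc finger and an RNA-recognition motif, read 4.50 and 4.05 at 1DBP, 4.37, 4.46, 4.09 and 3.81 at 1DPP, 4.53, 3.53 and 4.36 at 3DPP, and 1.49 and 1.60 at 8DPP. AT1G50270, a pentatricopeptide repeat protein, a family that edits and processes organelle RNA, read 4.42 and 1.51 at 1DBP, 1.81, 1.76, 1.79 and 1.47 at 1DPP, -0.50, 0.41 and -0.56 at 3DPP, and -1.74 and -1.40 at 8DPP. The first stayed level up to 3DPP and the mean of the second stepped down at every stage, with its 1DBP arrays almost 3 log2 units apart. AT1G62050, an ankyrin repeat protein, read 4.20 and 4.78 at 1DBP, 3.93, 2.51, 3.02 and 2.74 at 1DPP, 2.06, 2.01 and 1.38 at 3DPP, and 0.68 and 0.79 at 8DPP. AT1G73110, a P-loop nucleoside triphosphatase, read 3.32 and 3.96 at 1DBP, 2.26, 1.95, 1.65 and 1.84 at 1DPP, 0.07, 0.13 and 0.50 at 3DPP, and -0.58 and -0.32 at 8DPP. Both stepped down at every stage with no overlap between neighbouring stages.

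The members of the ribosome and of RNA turnover had levels near those of cultured cells in the pistil. AT5G22440, a ribosomal protein of the L1/L10a family, read 0.04 and -0.47 at 1DBP, -0.35, -0.37, 0.09 and -0.31 at 1DPP, -0.59, -0.26 and -0.50 at 3DPP, and -2.20, -2.47 and -2.06 at 8DPP. AT4G27090, ribosomal protein L14, read 0.01 and -0.53 at 1DBP, -0.68, -0.79, -0.15 and -0.46 at 1DPP, -0.78, -0.83 and -0.77 at 3DPP, and -2.43, -2.65 and -2.60 at 8DPP. Both were flat up to 3DPP and lay more than 1 log2 unit lower on each 8DPP array, and these values were alike on all 3 arrays. AT5G14580, a mitochondrial polynucleotide phosphorylase, read 0.88 and 0.53 at 1DBP, 0.12, 0.08, 0.42 and 0.07 at 1DPP, 0.05, -0.20 and 0.05 at 3DPP, and -2.19, -2.18 and 0.35 at 8DPP. Replicate 3 at 8DPP lay at the level of the earlier stages, so its difference of -2.05 comes from the other 2 arrays.

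The remaining 5 named members have products for which no role is given here. AT1G05550 read 4.88 and 4.22 at 1DBP, 4.96, 3.93, 4.38 and 3.06 at 1DPP, 3.24, 0.02 and 2.44 at 3DPP, and 0.25 and -0.16 at 8DPP. AT1G70100 read 3.74 and 6.69 at 1DBP, 3.42, 2.71, 1.95 and 4.18 at 1DPP, 2.68 and 2.51 at 3DPP, and 0.54, 2.39 and 1.91 at 8DPP. AT3G13175 read 5.54 and 4.91 at 1DBP, 5.93, 5.40, 4.58 and 4.11 at 1DPP, 4.45 and 5.07 at 3DPP, and 1.00 and 2.53 at 8DPP. Of these, AT1G70100 had 1 high 1DBP array and AT3G13175 was level up to 3DPP. AT1G22630 read 6.53 and 6.36 at 1DBP, 4.67, 4.33 and 6.91 at 1DPP, 5.52 and 4.99 at 3DPP, and 3.38 and 4.08 at 8DPP. AT5G66000 read 3.79 and 2.03 at 1DBP, 2.04, 1.47, 2.25 and 1.93 at 1DPP, 2.60, 1.22 and 1.56 at 3DPP, and 1.15 and 0.13 at 8DPP. AT1G22630 was high in every group of the series from 1DBP to 8DPP, and AT5G66000 had 1 high array at 1DBP.

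Lists of other genes of the tissues that make up the fruit held few members, and many of their probes lacked the required values. Of the carpel and ovule regulators, 5 probes were on the array, 3 had the required values and 1, SPT, was a member, with a median difference of -0.65 over the 3. Of 7 cell wall probes 6 had the values and 1, HRGP1, was a member, with a median of 0.71. Members were absent from the lists for cell division (2 of 5 probes with values, median 1.28), photosynthesis (5 of 7, median 1.87), pollen (2 of 3, median 1.78), seed storage and late embryogenesis (5 of 6, median -0.11) and meiosis (2 of 4, median 0.41), whereas the median over all probes was -0.03. These medians leave out 14 listed probes without the required values, of which 10 had a mean at both ends of the series and 4 of those were lower at 8DPP by 2 log2 units or more. Among them are 3 of the 5 cell division probes, each with 1 value at 8DPP: the topoisomerase gene TOPII differed by -3.49, the histone H2B gene HTB2 by -2.76 and the replication gene PRL by -3.86. The other is YAB3, a YABBY factor of organ polarity, which has 1 value at 3DPP and differed by -4.26. The stage means of HTB2 stepped down throughout, whereas those of TOPII, PRL and YAB3 rose at 1 step. The cell division median of 1.28 thus comes from the other 2 probes, CYCJ18 and HIS1-3. Neither probe of the lipid transfer, thionin and defensin list had the values, and the ribosome and peroxidase lists found no probe. All lists search gene symbols and synonyms, and they do not hold every member of their kind. Absent from them are AT1G62500 and AT1G48750 of the lipid-transfer superfamily, the peroxidase AT1G71695, the polygalacturonase-like AT3G62110 and the ribosomal proteins AT5G22440 and AT4G27090. Among single markers, the pollen pectin methylesterase VGD1 averaged 1.22 at 1DBP, 3.58 at 1DPP, 4.27 at 3DPP and 3.62 at 8DPP. The other pollen markers differed from it. ACT12 averaged -0.05 at 1DBP (1 value), 4.17 at 1DPP, 0.75 at 3DPP and 0.72 at 8DPP. TUA1 stayed below 0 throughout, at -1.67, -0.87, -1.04 and -0.52 in the same order. BAN, a seed coat enzyme of tannin synthesis, averaged -0.57 at 1DBP, 4.24 at 1DPP (1 value), 4.73 at 3DPP and 2.39 at 8DPP. The part of these tissues in the members' levels was not tested.

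The levels of the members were next read in the 13 organ groups outside the pistil and silique series. Of the 421 members, 222 had their highest group mean of all at 1DBP, which is 52.7% against 4.82% of all probes with the required values. In 6.86% of those probes the 1DBP mean lay above every group outside the series. The rule favours a high 1DBP level. In 76 members both 1DBP arrays lay above every one of the 33 arrays outside. In 38 the 1DBP mean exceeded the highest outside group by at least 2 log2 units. The rule favours both properties and their shares over all probes were not computed, so nothing is read from these counts. At the other end, the 8DPP mean of 103 members, or 24.5%, was the lowest of all groups measured. The 8DPP mean was the lowest of all groups in 3.96% of all probes with the required values, and the rule favours a low 8DPP level. The members' medians outside were between 0.59 in light hypocotyl and 1.09 in germinating seed, below the 1DPP median and above the 8DPP median.

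Some named genes stood highest in the 1DBP pistil, by margins that differed. The 1DBP arrays of AT1G62500, ATLP-1, AT1G05550, scpl35, AT1G48750 and AT5G66000 were above every array outside. They are 6 of the 76 members with that property, whose share over all probes was not computed and which the rule favours. For 3 of them the gap was narrow. The lower 1DBP array read 5.60 for AT1G48750, against 5.40 on 1 light root array. It read 5.34 for ATLP-1, against 5.15 on 1 stem array, and 2.03 for AT5G66000, against 1.81 on 1 stamen array. AT1G62500 exceeded its highest outside group, dark cotyledon at 1.79, by 5.69 log2 units. AT1G05550 exceeded its own, sepal at 0.81, by 3.75. For these genes no outside group passed the test as higher than cultured cells in any of the 11 and 12 groups tested, although the fitted spread of AT1G62500, which includes its scattered 8DPP arrays, was wide. ATLP-1 at 1DBP exceeded stem, at 4.85, by 2.30 log2 units, with the organ in channel 1 on the stem arrays. The margins of ATLP-1 and AT1G62500 use means of 1DBP arrays that lay far apart. Replicates 2 and 3 read 8.97 and 5.34 for ATLP-1, and 10.11 and 4.85 for AT1G62500, so both margins lean on replicate 2. AT1G02190 at 1DBP exceeded germinating seed, at 1.48, by 2.0, though 1 light hypocotyl array of this gene read 3.69.

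Most named genes were not restricted to the pistil. AT4G23670 and AT1G62050 were called higher than cultured cells in all 12 groups in which each was tested, and HRGP1 and AT3G51950 in 11 of 13. AT1G59640 had its highest level in petals, with 7.31, 6.78 and 8.03 on the 3 arrays, and in stamens, with 6.70, 6.33 and 7.12, against 3.14 and 3.12 in 1DBP pistils. HRGP1 was highest in light roots, with 7.28 and 8.26, and in dark roots, with 6.86 and 6.93, and 12 of its 13 outside groups lay above 1DBP pistils. AT1G22630 was highest in rosette leaves, with 7.67, 7.50 and 6.91, and AT3G13175 in stem, with 5.78, 6.34 and 6.79. The petal, root, rosette leaf and stem arrays of these 4 genes were above their pistil arrays in all cases but AT3G13175, where 1DPP replicate 1 overlapped the stem arrays, and AT1G22630 on 1DPP replicate 3 was level with its lowest rosette leaf array. The organ was in channel 1 in rosette leaf, stem and 1 light root array and in channel 2 in the pistil, so the dye differed there.

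Each of the 13 organs was tested against cultured cells in a moderated linear model over all arrays (limma), and a probe was called where its change was 2-fold or more and its adjusted p below 0.05. These comparisons share the cultured-cell RNA with the arrays that chose the members, so the counts of members are given beside the background and not read as independent of the rule. In floral organs 121 of 387 members tested were called higher and 54 lower in sepal (background 22.0% and 28.8% of all probes tested), 137 and 44 of 405 in petal (22.4% and 22.8%), and 168 and 49 of 416 in stamen (23.5% and 25.1%). In rosette leaf 172 and 30 of 408 were called (23.6% and 18.0%), in cauline leaf 174 and 25 of 420 (21.9% and 16.4%) and in stem 183 and 23 of 418 (22.8% and 15.7%). In germinating seed 183 and 59 of 379 were called (29.3% and 29.4%). In cotyledons the counts were 113 and 37 of 409 in light (17.7% and 22.1%) and 186 and 29 of 419 in the dark (20.1% and 20.9%). In hypocotyls they were 67 and 23 of 208 in light (20.5% and 20.7%) and 151 and 48 of 373 in the dark (19.6% and 26.9%). In roots they were 133 and 17 of 400 in light (18.5% and 14.5%) and 89 and 28 of 398 in the dark (13.2% and 19.6%). Without centring, where the median of all probes in these organs reached 1.12 log2 units in germinating seed (0.12 with centring), the split was 199 higher and 28 lower in sepal, 237 and 26 in petal, 242 and 34 in stamen, 258 and 26 in germinating seed, 117 and 10 in light hypocotyl, 197 and 32 in dark hypocotyl, and 157 and 21 in dark root, and with centring on the named probes it was 168 and 40 in sepal. In the main centring of every organ the members' share called higher was above the background and the share called lower was below it. The members were also called higher in more organs, a median of 4 of 13 against 1 for all probes with the values. The members higher in none numbered 59, which is 14.0% against 36.4% of all probes with the values.

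Floral organs outside the pistil were highest for AT1G59640, at 7.37 ± 0.37 (SE of the fit) in petal, 6.72 ± 0.37 in stamen and 3.31 ± 0.45 in sepal. AT1G70100 was called in all 3, at 4.81 ± 0.71 in petal, 4.44 ± 0.58 in stamen and 2.09 ± 0.71 in sepal. The next in petal were AT1G22630 at 4.67 ± 0.67, AT1G73110 at 3.59 ± 0.24, AT5G63410 at 3.46 ± 0.69 and AT1G48750 at 2.93 ± 0.28. In stamen they were AT1G22630 at 4.15 ± 0.82, AT5G63410 at 4.15 ± 0.69, AT3G13040 at 3.72 ± 0.59 and AT1G48750 at 3.38 ± 0.28. Petal replicate 3 was low for 2 of these genes. AT5G63410 read 4.75, 5.61 and 0.03 on the petal arrays, and lost its petal call when those arrays were fitted alone. AT1G22630 read 6.45, 5.77 and 1.79 there and kept its call. Sepal had AT3G13040 at 3.21 ± 0.72, AT1G73110 at 2.36 ± 0.29, AT4G23670 at 1.85 ± 0.52 and HRGP1 at 1.75 ± 0.58, which lost the call when either sepal array was left out, as did AT1G70100, and as AT4G23670 did without replicate 1. The 3 floral organs shared their lowest named members, the ribosomal and RNA-turnover genes. AT5G22440 was called lower at -4.56 ± 0.18 in stamen, -4.36 ± 0.22 in sepal and -4.33 ± 0.18 in petal, with arrays from -4.63 to -4.08. AT4G27090 was at -3.12 ± 0.34 in petal, -3.12 ± 0.41 in sepal and -3.0 ± 0.34 in stamen, and AT5G14580 at -2.35 ± 0.31, -2.04 ± 0.31 and -1.70 ± 0.38 in stamen, petal and sepal, the sepal call being lost without centring. AT5G03610 was lower in sepal at -1.39 ± 0.31, a call lost under 2 other centrings.

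Leaves and stem shared most of their highest named members. AT1G22630 was at 7.36 ± 0.67 in rosette leaf, 6.55 ± 0.67 in cauline leaf and 4.92 ± 0.67 in stem, and AT3G51950 at 4.51 ± 0.22, 3.70 ± 0.22 and 4.08 ± 0.22 in the same organs. AT1G48750 was at 2.85 ± 0.28 in rosette leaf, 3.35 ± 0.28 in cauline leaf and 4.23 ± 0.28 in stem. The leaves also had AT4G23670, at 4.47 ± 0.43 in rosette and 4.81 ± 0.43 in cauline leaf, and AT5G63410, at 3.55 ± 0.69 and 3.19 ± 0.69. AT1G62050 completed the rosette leaf group at 3.16 ± 0.32, and scpl35 was at 3.51 ± 0.23 in cauline leaf and 3.63 ± 0.23 in stem. Stem was led by AT3G13175 at 6.30 ± 0.53 and also had ATLP-1 at 4.85 ± 0.57. The lower calls were AT4G27090 at -1.28 ± 0.34 and AT5G22440 at -1.24 ± 0.18 in rosette leaf, SPT at -2.32 ± 0.42 in cauline leaf, and AT3G13040 at -2.95 ± 0.59 and SPT at -1.28 ± 0.42 in stem. SPT in stem rested on replicate 3 and was -0.70 with an adjusted p of 0.27 without it.

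Seeds and seedlings had HRGP1 as their highest named member in 5 groups, at 7.77 ± 0.58 in light root, 6.89 ± 0.58 in dark root, 6.21 ± 0.47 in germinating seed, 6.11 ± 0.58 in light hypocotyl and 5.09 ± 0.58 in dark hypocotyl. In cotyledons AT1G22630 was highest, at 7.06 ± 0.82 in light and 4.75 ± 0.67 in the dark. AT4G23670 was among the highest in germinating seed (3.76 ± 0.43), light cotyledon (4.63 ± 0.52), dark cotyledon (4.49 ± 0.43), light hypocotyl (4.31 ± 0.52), light root (5.83 ± 0.52) and dark root (4.0 ± 0.52).

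The other named members among the 6 highest differed between the young organs. Germinating seed had AT3G13175 at 4.20 ± 0.53, scpl35 at 2.89 ± 0.23, AT1G70100 at 2.70 ± 0.58 and AT1G73110 at 2.54 ± 0.24. Light cotyledon had AT1G62050 at 3.63 ± 0.39, AT5G63410 at 3.46 ± 0.85, AT1G70100 at 3.24 ± 0.71 and ATLP-1 at 2.60 ± 0.70. Dark cotyledon had AT1G70100 at 3.88 ± 0.71, AT5G63410 at 3.57 ± 0.69, AT4G36970 at 2.89 ± 0.26 and AT2G41760 at 2.70 ± 0.27. The last of these, the amidase, was also lower in light on the direct arrays, and the remorin was not called there. Light hypocotyl had AT1G62050 at 2.67 ± 0.39, ATLP-1 at 1.81 ± 0.70, AT3G51950 at 1.72 ± 0.27 and AT1G48750 at 1.64 ± 0.34. Dark hypocotyl had AT3G20015 at 4.45 ± 0.66, AT1G70100 at 3.87 ± 0.71, AT3G51950 at 2.95 ± 0.27, AT5G63410 at 2.94 ± 0.85 and AT1G48750 at 2.53 ± 0.34. In roots AT1G48750 was at 4.99 ± 0.34 in light and 1.70 ± 0.34 in the dark, AT3G20015 at 4.14 ± 0.66 and 2.28 ± 0.66, and AT3G51950 at 3.46 ± 0.27 and 2.44 ± 0.27. Light root also had AT3G13175 at 3.17 ± 0.64 and dark root AT2G41760 at 1.61 ± 0.33. Leaving out 1 array ended the calls of ATLP-1 in light cotyledon and light hypocotyl, of AT5G63410 in dark hypocotyl, and of AT3G20015 and AT1G48750 in dark root.

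Lower calls in seeds and seedlings were again mostly of the ribosomal pair. AT4G27090 was at -2.46 ± 0.34 in germinating seed, -2.72 ± 0.41 in light cotyledon, -2.49 ± 0.34 in dark cotyledon, -2.34 ± 0.41 in light hypocotyl, -3.07 ± 0.41 in dark hypocotyl, -1.10 ± 0.41 in light root and -2.56 ± 0.41 in dark root. AT5G22440 was at -2.53 ± 0.22 in light cotyledon, -2.76 ± 0.18 in dark cotyledon, -1.73 ± 0.22 in light hypocotyl, -3.80 ± 0.22 in dark hypocotyl and -1.88 ± 0.22 in dark root. In all, AT4G27090 was called lower than cultured cells in 11 and AT5G22440 in 9 of the 13 groups. AT5G14580 was lower in light cotyledon at -1.74 ± 0.38 and in dark cotyledon at -1.14 ± 0.31, and AT1G02190 at -1.59 ± 0.36, -1.08 ± 0.29 and -1.19 ± 0.36 in light cotyledon, dark cotyledon and dark hypocotyl. AT1G48750 was lower in dark cotyledon at -1.10 ± 0.28, SHI in germinating seed at -1.47 ± 0.54 and in dark hypocotyl at -1.97 ± 0.66, and AT1G59640 in germinating seed at -1.10 ± 0.37. Without centring, the calls of AT5G14580, AT1G02190 and AT1G48750 in dark cotyledon, of AT1G02190 and SHI in dark hypocotyl, of SHI and AT1G59640 in germinating seed, of AT4G27090 in light root and of AT5G22440 in light hypocotyl were lost. Leaving out 1 array ended the calls of AT1G02190 in light cotyledon, of AT5G14580 and AT1G48750 in dark cotyledon, of AT1G02190 and SHI in dark hypocotyl, of SHI and AT1G59640 in germinating seed and of AT4G27090 in light root.

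Differences between organs cancel the cultured-cell RNA, and their group means used none of the pistil or silique arrays, although the spread behind their standard errors and p-values came from a model that includes those arrays. Stem was set against the mean of rosette and cauline leaf, and 59 of 407 members were called higher and 39 lower (background 7.91% and 8.52% of all probes tested), so that the share called higher, 14.5%, exceeded the background and that called lower, 9.58%, lay close to it. AT3G13175 read 5.78, 6.34 and 6.79 in stem, against 2.79, 2.12 and 2.81 in rosette leaf and 4.56, 3.76 and 0.98 in cauline leaf, a difference of 3.47 ± 0.64 (adjusted p = 0.00019). ATLP-1 read 4.60, 4.81 and 5.15 in stem, against 1.15, 1.16 and 4.14 in rosette leaf and 2.47, 2.63 and 1.35 in cauline leaf, a difference of 2.70 ± 0.70 (adjusted p = 0.0045). The stem arrays of both genes were above all leaf arrays. The lipase AT5G03610 was higher by 2.09 ± 0.31 (adjusted p = 5.9e-06), AT4G27090 by 1.87 ± 0.41 (adjusted p = 0.00086), AT5G22440 by 1.70 ± 0.22 (adjusted p = 3.9e-07) and AT1G59640 by 1.45 ± 0.45 (adjusted p = 0.018). AT4G27090 owed its stem level largely to replicate 1, which read 2.79 against 0.33 and 0.30 on the others, and its call was lost without that array, as was that of AT1G59640.

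The peroxidase AT1G71695 was the clearest of the named genes lower in stem than in leaves. It read -0.40, -0.02 and -0.17 in stem, against 2.20, 2.01 and 1.94 in rosette leaf and 2.63, 2.47 and 2.0 in cauline leaf, a difference of -2.40 ± 0.24 (adjusted p = 2.2e-09). No stem array came near a leaf array. AT4G23670 differed by -2.68 ± 0.52 (adjusted p = 0.00024), AT3G13040 by -2.38 ± 0.75 (adjusted p = 0.021), HRGP1 by -2.08 ± 0.62 (adjusted p = 0.015) and the remorin AT4G36970 by -1.49 ± 0.32 (adjusted p = 0.00056). Calls of AT3G13040 and HRGP1 were each lost when 1 stem array was left out.

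Within the flower few members were called. Stamen against the mean of petal and sepal gave 22 of 375 members higher and 8 lower (background 5.11% and 2.24%), and petal against sepal gave 17 of 376 higher and 5 lower (5.09% and 2.30%), shares close to the background in both. With arrays scaled to a common spread, 13 were higher and 1 lower in petal. AT1G48750 and AT3G51950 were the named calls in stamen, higher by 1.38 ± 0.35 (adjusted p = 0.0095) and 1.02 ± 0.28 (adjusted p = 0.017), and both were lost without stamen replicate 3. AT1G59640 read 7.31, 6.78 and 8.03 in petal, against 3.33 and 3.29 in sepal, and differed by 4.06 ± 0.58 (adjusted p = 1.8e-05). The peroxidase AT1G71695 read 1.46, 1.18 and 2.09 in petal, against -0.47 and -0.60 in sepal, and differed by 2.11 ± 0.30 (adjusted p = 1.5e-05). Petal arrays of both were above both sepal arrays by more than 1 log2 unit. The other calls were scpl35 at 2.05 ± 0.41 (adjusted p = 0.0011), AT1G48750 at 1.85 ± 0.44 (adjusted p = 0.0064), AT2G41760 at 1.38 ± 0.42 (adjusted p = 0.037) and AT1G73110 at 1.22 ± 0.37 (adjusted p = 0.037). The last 3 were lost when 1 array was left out, and all 6 when the 5 arrays were fitted without the rest.

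Seed and seedling organs were compared in the same way. Germinating seed against dark cotyledon gave 64 of 377 members higher and 86 lower (background 16.8% and 23.7%), which is close to the background on both sides. The split was 95 and 58 without centring and 24 and 78 with arrays scaled to a common spread. HRGP1 read 5.98, 6.27 and 6.37 in germinating seed, against 2.24, 1.23 and 1.36 in dark cotyledon, and differed by 4.60 ± 0.67 (adjusted p = 1.2e-06). AT1G73110 was higher by 2.59 ± 0.33 (adjusted p = 1.3e-07), AT1G02190 by 2.56 ± 0.42 (adjusted p = 7.8e-06), AT5G22440 by 1.92 ± 0.25 (adjusted p = 1.5e-07), AT3G13175 by 1.90 ± 0.74 (adjusted p = 0.04) and AT5G14580 by 1.76 ± 0.44 (adjusted p = 0.0013). The genes higher in germinating seed thus include the wall glycoprotein, the wax-type enzyme and a ribosomal protein. Lower in germinating seed were AT1G22630 at -3.36 ± 1.05 (adjusted p = 0.012), AT2G41760 at -3.03 ± 0.38 (adjusted p = 8.1e-08), AT5G63410 at -2.97 ± 0.98 (adjusted p = 0.015), AT1G59640 at -2.94 ± 0.52 (adjusted p = 2.4e-05), SHI at -2.03 ± 0.76 (adjusted p = 0.03) and AT1G71695 at -2.03 ± 0.27 (adjusted p = 2.2e-07). Calls of AT3G13175, AT1G22630, AT5G63410 and SHI were lost when dark cotyledon replicate 1 was left out.

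Dark hypocotyl against dark cotyledon gave 20 of 371 members higher and 49 lower (background 5.79% and 9.89%), or 5 and 35 with arrays scaled to a common spread. AT1G48750 read 2.33 and 2.73 in dark hypocotyl, against -0.92, -1.52 and -0.87 in dark cotyledon, and differed by 3.64 ± 0.44 (adjusted p = 3.9e-07). HRGP1 read 5.24 and 4.93 in dark hypocotyl, against 2.24, 1.23 and 1.36 in dark cotyledon, and differed by 3.48 ± 0.74 (adjusted p = 0.0012). In both genes the arrays of the 2 organs were far apart. AT3G20015 was higher by 3.0 ± 0.85 (adjusted p = 0.013) and AT5G03610 by 1.23 ± 0.40 (adjusted p = 0.032), while SHI differed by -2.53 ± 0.85 (adjusted p = 0.037), AT1G59640 by -1.77 ± 0.58 (adjusted p = 0.032), AT1G71695 by -1.48 ± 0.30 (adjusted p = 0.00069) and AT5G22440 by -1.04 ± 0.28 (adjusted p = 0.0085). Leaving out 1 array ended the calls of AT3G20015, AT5G03610, SHI, AT1G59640 and AT5G22440. Dark root against dark hypocotyl gave 16 of 359 members higher and 6 lower (background 5.14% and 1.81%). The split was 13 and 11 when centred on the named probes, and 7 and 0 with a common spread. The 1 named call was AT5G22440, which read -1.78 and -1.99 in dark root, against -3.78 and -3.83 in dark hypocotyl, a difference of 1.92 ± 0.31 (adjusted p = 0.00014) whose call was lost when arrays were scaled to a common spread (1.15, adjusted p = 0.09).

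Light against dark was measured on the direct arrays. In cotyledons 25 of 418 members were called higher in light and 28 lower (background 6.55% and 4.82%), and in roots 25 of 401 higher and 14 lower (4.81% and 4.31%). SPT, which besides its role in the carpel is known as a light- and temperature-sensitive repressor in seedlings, had light over dark ratios of -4.21 and -3.48 in cotyledons, a change of -3.84 ± 0.51 (adjusted p = 1.6e-06). Through cultured cells it read -0.93 and -0.31 in light cotyledon, against 0.55, 2.97 and 3.15 in dark cotyledon, so its arrays lay in the same order by both routes. Its mean in dark cotyledon, 2.23, lay within 0.04 log2 units of that in 1DBP pistils, 2.26. AT2G41760 was also lower in light, at -1.07 ± 0.33 (adjusted p = 0.024), and lost its call without either array, and AT5G22440 was higher in light at 1.55 ± 0.22 (adjusted p = 2.6e-06).

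In roots 5 named members were called higher in light and 1 lower, while over all members the split was 16 higher and 17 lower without centring, 18 and 21 when centred on the named probes and 67 and 71 with a common spread. AT4G23670 had light over dark ratios of 2.31 and 3.17, a change of 2.74 ± 0.52 (adjusted p = 0.00053). AT1G48750 had 1.65 and 2.24, a change of 1.94 ± 0.34 (adjusted p = 0.00018), and AT5G22440 had 1.43 and 1.89, a change of 1.66 ± 0.22 (adjusted p = 2.6e-06). All 6 of these ratios were above 1 log2 unit. AT5G14580 changed by 1.49 ± 0.38 (adjusted p = 0.008), AT4G27090 by 1.26 ± 0.41 (adjusted p = 0.04) and AT5G66000 by -1.13 ± 0.35 (adjusted p = 0.033). AT5G22440 was therefore higher in light on both direct cotyledon and both direct root arrays, and its levels through cultured cells were 0.49 and -0.15 in light root, against -1.78 and -1.99 in dark root, but -2.58 and -2.47 in light cotyledon, against -2.38, -2.92 and -2.98 in dark cotyledon, where the groups overlapped. Without root array 2, the calls of AT4G23670, AT1G48750, AT5G14580, AT4G27090 and AT5G66000 were lost and 6 members in all were called, against 39 with both arrays.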

How the data were processed

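Total RNA of Arabidopsis organs was hybridised on 51 two-colour arrays of 27648 probes. The deposited values are log2 ratios, floored at a ratio of 0.001; per the labels, organ and cultured cells (or light and dark) occupied the channels, and the authors' image analysis and normalization are not given in the sources used here. An array held 7399 to 26609 values once replicate spots of 3 control accessions (17 spots per accession) had been averaged to give 27600 probes. The number of arrays limits the precision. Signal over background was not analysed here.

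Each array was centred on its median. Gene names came from the probe annotation table, which gives 1 symbol for 2032 probes and several for 644; Entrez identifiers linked 1981 of the former to RefSeq (TAIR10.1), which served for names alone. Probes on genomic clone accessions were not named. All 51 arrays entered 1 limma model with a mean for each group (limma 3.58.1 in R 4.3.3), checked on simulated data. Its two-sided p-values were adjusted with the Benjamini-Hochberg procedure over every probe tested in a comparison, which needed 2 values in each group. The spread it shares includes the pistil and silique arrays. Named are all members with 1 gene, and per comparison the 6 highest and 6 lowest called. Members and gene lists were chosen with earlier results of these data known. Alternatives were other centrings and scalings, a replicate block, separate fits, group medians, a larger difference and leaving out each array. Both light root arrays carry the number 1. Gene and promoter sequences were not used here, and the direct hypocotyl arrays were left out.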

Additional observations from a re-analysis of the deposited data

Results flagged for a closer look

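In 3 named members 1 of the 4 arrays of the Pistil 1DPP group was set apart from the other 3, out of 30 named members with 4 values there. This is judged by the gap to the nearest array against the whole range (Dixon's test), which flags about 1 in 20 groups by chance. AT1G50270 lay at 1.47 on replicate 4, below the other arrays at 1.76 to 1.81. AT5G14580 lay at 0.42 on replicate 3, above the others at 0.07 to 0.12. AT5G22440 lay at 0.085 on replicate 3, above the others at -0.37 to -0.31. Both of the higher values are on the same array.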

How the results depend on the processing

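Of 238 recomputed counts of members, 206 lay within 1.5 times the main one. The rule kept 237 probes without centring and 164 (16 named) with a difference of at least 3. Leaving out 1 array at a time gave 122 to 593 members and 10 to 38 named, the low ends without 8DPP replicate 2. Of 1516 gene values recomputed, 1346 kept their call, 170 lost it and 0 reversed. Calls over both directions moved as follows. Without centring, dark root had 178, against 117. Scaling arrays to a common median absolute value gave 16 for stamen against petal and sepal, 14 for petal against sepal, 7 for dark root against dark hypocotyl, 40 for dark hypocotyl against dark cotyledon, 165 for direct cotyledon and 138 for direct root arrays, against main counts of 30, 22, 22, 69, 53 and 39. Fitting only the arrays compared gave 19 for stamen against petal and sepal. The same fits gave 0 in limma for light hypocotyl, petal against sepal, dark root against dark hypocotyl and direct cotyledon. There 68, 71, 90 and 133 members, in that order, had an unadjusted p under 0.05. Leaving out an array gave 97 to 102 calls for light cotyledon, 75 to 89 for dark root, 9 to 22 for petal against sepal, 7 to 19 for dark root against dark hypocotyl, 34 to 55 for dark hypocotyl against dark cotyledon, 26 to 28 for direct cotyledon and 6 to 38 for direct root. The causes were not tested. The replicate block kept 444 members, 358 of them shared with the 421, and 30 named. Same-numbered arrays correlated at -0.07 to 0.05 over 15 pairs of the stages, -0.12 to 0.11 over 9 of leaves and stem, -0.03 to 0.02 over 13 of germinating seed and dark seedlings and -0.01 to 0.25 over 7 of the flower, so the numbers were not taken to pair the samples of any comparison. The 3 petal and stamen pairs, at 0.12, 0.14 and 0.25, were above 0.1, whereas the 4 pairs with sepal were not, and the block gave 30 calls for stamen against petal and sepal and 21 for petal against sepal. The block moved no count of calls by over 1.5 times, and in the gene results it ended those of AT1G59640 in dark hypocotyl and AT4G27090 in direct root.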
